A study of Homo sapiens with 42 samples.

Results

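The samples described here are 6 of the 42 in the study: 3 libraries of H1975 persisters that received AZD5153 in the last days of treatment (called combo) and 3 libraries of H1975 persisters that did not (called DTP, for drug-tolerant persister). They were chosen by the cell line and treatment that the sample names give, and not by any measured value. H1975 is an established human lung adenocarcinoma line that carries a mutated EGFR. DTP cells were kept in 500 nM osimertinib, an inhibitor of mutant EGFR, for 24 days. Combo cells had 500 nM osimertinib for 21 days and then 150 nM AZD5153 for 3 days, and from the labels it is not clear if osimertinib stayed on in those 3 days. Control cells had 21 drug-free days and 3 days of DMSO, and another H1975 group had AZD5153 alone, at 150 nM for 3 days after 21 drug-free days. Both groups entered the filter on reads, the scaling and the shared estimate of spread. Control values are also given side by side, order the joined stretches of regions described below, and enter the fits that compare cell lines. The libraries are labelled as biological triplicates of one line, so the p-values below reach no further than that line. Some libraries of a group differed by no more than counting noise, as given below. It is therefore not clear how much spread between cultures the p-values hold.

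AZD5153 is an inhibitor of the BET bromodomain proteins. BET proteins bind acetylated histone tails at active promoters and enhancers and help RNA polymerase II to be released into elongation through P-TEFb. Genes that rest on large enhancer clusters, MYC among them in many tumours, are known for their sensitivity to such inhibitors. Persister cells are the small fraction of a tumour cell population that outlives a targeted drug without a resistance mutation, and their altered chromatin is one reason to add a chromatin-directed drug. ATAC-seq measures where a transposase can cut, so a higher count marks a more open region and says nothing directly about transcription or BET protein binding.

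The labels' titles and design name ATAC-seq, while their extraction text describes a chromatin immunoprecipitation for H3K27ac; the values are read here as ATAC-seq. The H1975 table counts reads in 496892 regions of equal width on the hg38 genome, of which 191202 had enough reads to be tested. The authors annotated 76952 of these with a gene and a distance to its transcription start, and 28291 of them lie within 1 kb of a start (promoter regions below). Read totals were 8321788 to 9547244 in DTP and 8575688 to 10062505 in combo. The authors' caller listed 215783 to 224437 peaks in a DTP library and 188695 to 206030 in a combo library. Libraries of one group were very alike, with a biological coefficient of variation of 3.2% in H1975 against 10.15% in HCC2935, another line of the study. Counts of combo 1 and combo 2, and of combo 1 and combo 3, differed by no more than counting noise (variance ratios 0.978 and 0.969, where 1 is counting noise alone), while the DTP pairs lay at 1.06 to 1.27. The main counts of combo against DTP are therefore given in a pair of readings: edgeR's quasi-likelihood test over the 3 libraries, and a stricter edgeR test in which the 3 libraries of a group are summed and counted as 1 sample with the spread of HCC2935. Some gene lists and the comparisons between lines are given without the stricter reading. The third reading, chosen after the data were seen, replaces the TMM scaling by loess offsets that remove any trend of the change with abundance. The H1975 libraries with AZD5153 alone stood apart: medians of their change from control in 10 Mb bins of the genome ran from -1.39 on chromosome 9 to 1.55 on chromosome 8 (SD 0.43 over 297 bins), while those of combo against DTP had an SD of 0.068. They are used only for the filter, the scaling and the shared estimate of spread, and the cause of that pattern was not tested.

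The labelled cell type was checked at promoter regions of defining genes. All 6 epithelial markers were open in every library, from KRT18, a keratin of simple epithelia, at 18.7 to 22.3 CPM (counts scaled to 1e6 reads) in DTP to KRT8, its partner keratin, at 182 to 205 CPM in DTP and 248 to 267 CPM in combo. The summed epithelial level was 373 to 411 CPM in DTP and 476 to 507 CPM in combo. Of 6 leukocyte markers, 4, PTPRC, CD3E and SPI1 among them, had no region, and the summed level was 5.93 to 7.70 CPM in DTP and 4.05 to 4.78 CPM in combo. Of 6 fibroblast markers, 2 had a region, COL1A1 at 49.3 to 54.3 CPM over both groups and COL3A1 at no more than 7.87 CPM. Of 6 endothelial markers, VWF, TEK, TIE1 and EMCN had none, and CDH5 lay at 15.7 to 16.7 CPM over both groups.

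Many regions differed in accessibility between combo and DTP, and most of those differences were under 2-fold. Since osimertinib may have ended when AZD5153 began, the addition of one and the removal of the other cannot be told apart. In the first reading 40278 regions passed an adjusted p of 0.05 (21.1% of those tested, edgeR with Benjamini-Hochberg adjustment), 22128 higher in combo (11.6%) and 18150 lower (9.49%). The libraries of the 2 groups did not overlap at 33.9% of all regions. A change of at least 2-fold was seen at 3905 of the higher and 9139 of the lower regions. In the reading with summed libraries 7564 regions passed (3.96%), 3348 higher and 4216 lower, and each of these also passed in the first reading and with loess offsets. The direction of the smaller changes depended on the abundance of the region. The median log2 fold change ran from -0.19 in the least abundant 10% of regions to 0.22 in the most abundant 10%, where 8794 regions were higher and 913 lower. With loess offsets the medians of the 10 abundance classes lay between -0.06 and 0.02, the calls numbered 33524 (17.5%), 16200 higher and 17324 lower, and 740 of the first reading's calls turned their sign. With TMM factors taken from promoter regions alone (promoter-based scaling below) 21.2% of regions passed, 10968 higher and 29646 lower, with a median of -0.18 over all regions. By library size alone the split was 15013 higher and 24053 lower, so the balance of the directions moved with the scaling. The share of all counts that fell in the annotated regions, a measure of library quality, was 68.7% to 72.04% in DTP and 73.0% to 74.5% in combo, and its part in the trend was not tested.

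**Figure D1:**
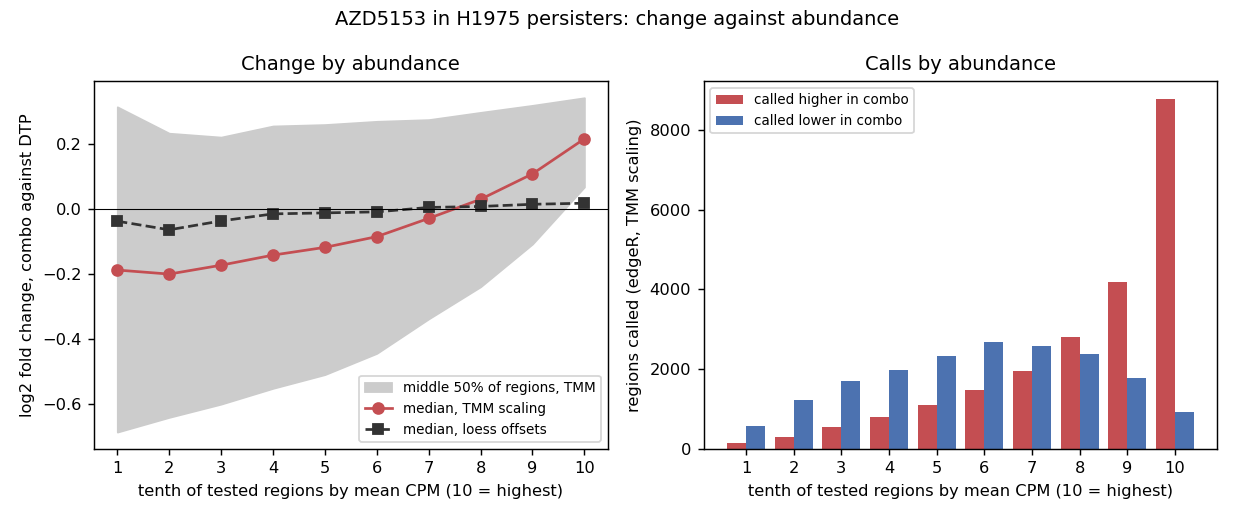
Left, the median log2 fold change of combo against DTP (y axis) in 10 equal classes of the tested regions ordered by mean CPM (x axis), with TMM scaling (circles) and loess offsets (squares); the grey band holds the middle 50% of regions under TMM. Right, the number of regions called higher and lower in each class with TMM scaling. The TMM median rises from -0.19 to 0.22 while the loess median stays near 0, and in the top class 8794 regions were called higher and 913 lower.

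Promoter regions were the class that leaned most to the open side, and little of this lean was left once the trend with abundance was removed. Of 28291 promoter regions, 7965 were higher in combo (28.2%) and 1828 lower (6.46%), with a median log2 fold change of 0.16. With loess offsets 3163 were higher and 2863 lower, with a median of 0.03, with promoter-based scaling 3003 were higher (10.6%) and 3670 lower (13%), and in the reading with summed libraries 582 were higher and 358 lower. Of the 41034 annotated regions more than 3 kb from a start, 7664 were higher (18.7%) and 5291 lower (12.9%), with a median of 0.03, which was -0.04 with loess offsets. The regions outside the annotated table went the other way, with 5158 higher and 10001 lower of 114250, and were even with loess offsets (6719 and 6835). By distance, regions that cover the start itself had a median of 0.20, those within 1 kb 0.08 and those from 1 to 3 kb 0.02. The loess medians at those distances were 0.04, 0.0042 and -0.06.

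One measure that needs no scaling factor went the same way as TMM scaling. It comes from the same counts and keeps the trend with abundance, so it is no separate support for a promoter lean. Promoter regions held 48.9%, 47.9% and 48.4% of the annotated counts in the 3 DTP libraries and 49.75%, 49.98% and 49.80% in the 3 combo libraries, so the groups did not overlap. The means were 48.4% ± 0.53 and 49.8% ± 0.12 (SD, n = 3 each), a difference of 1.42 percentage points (exact two-sided permutation test, p = 0.1, the smallest that 3 against 3 can give).

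The promoter regions that gained most were not those of well-known BET or EGFR genes. By a rule on both readings, abundance and non-overlap, 324 rises and 91 falls were eligible, and the 6 largest of each are given here. CTNNA2, an alpha-catenin of neural adherens junctions, had 5.37, 5.22 and 4.14 CPM in DTP and 16.8, 16.8 and 20.2 CPM in combo at chr2:80312182-80312683 (log2 fold change 1.88 ± 0.14 SE, edgeR adjusted p = 4.24e-29). The control libraries had 12.4 to 16.1 CPM there, so combo stood near control and DTP below both. SPATS2L, at chr2:200377955-200378456, had 5.12, 6.46 and 5.93 CPM in DTP and 18.4, 16.6 and 16.8 CPM in combo (1.55 ± 0.13, edgeR adjusted p = 7.68e-23), with 22.1 to 24.3 CPM in control. The region at the uncharacterized LOC642648 on chromosome 22 behaved alike, with 7.28 to 8.17 CPM in DTP, 20.2 to 23.4 CPM in combo and 14.8 to 17.8 CPM in control (1.47 ± 0.12). LINC00880, a long noncoding RNA on chromosome 3, had 6.01 to 7.42 CPM in DTP and 19.8 to 25.6 CPM in combo, and its 6.05 to 8.35 CPM in control was as low as in DTP (1.74 ± 0.12). The region assigned to PTH1R, the parathyroid hormone receptor, lies within MYL3, a myosin light chain gene, in RefSeq. It had 0.404 to 0.539 CPM in control, 4.03 to 5.44 CPM in DTP and 13.4 to 15.0 CPM in combo, so both steps were upward (1.63 ± 0.15). The region of FER1L6-AS1, an antisense transcript, lies within FER1L6 and had 10.6 to 13.9 CPM in DTP and 31.4 to 34.2 CPM in combo (1.44 ± 0.10). ATAC-seq has no strand, so reads of the antisense start and of the gene it overlaps cannot be told apart.

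The 6 promoter regions that lost most included a receptor for chemokines and the noncoding RNA next to MYC. TEX264, a receptor for the turnover of endoplasmic reticulum by autophagy, had 20.7, 21.2 and 21.0 CPM in DTP and 5.51, 5.73 and 5.40 CPM in combo at chr3:51675258-51675759 (-1.92 ± 0.13, edgeR adjusted p = 2.15e-33). Its control libraries were at 58.2 to 63.4 CPM, so it was lower in DTP and lower again in combo. CXCR3, a chemokine receptor best known on T cells, had 1.39 to 2.16 CPM in control, 25.7, 27.2 and 28.8 CPM in DTP and 10.1, 9.23 and 9.12 CPM in combo (-1.53 ± 0.11, edgeR adjusted p = 4.74e-31). CRAMP1, a chromatin protein, had 0.404 to 0.619 CPM in control, 14.7 to 15.9 CPM in DTP and 4.74 to 5.90 CPM in combo (-1.52 ± 0.14). At both, DTP was above control and combo stood between DTP and control. The falls were chosen for DTP values high against combo, so DTP above control is not read as a result. A start of PVT1, at chr8:127994747-127995248, had 68.7, 68.8 and 69.9 CPM in DTP and 25.1, 26.4 and 22.7 CPM in combo (-1.49 ± 0.07, edgeR adjusted p = 3.95e-50), with 85.1 to 104 CPM in control. CEACAM19, of the carcinoembryonic antigen family, had 26.2 to 28.4 CPM in DTP and 8.85 to 12 CPM in combo (-1.36 ± 0.10). RDH11, a retinol dehydrogenase, had 12.8 to 17.1 CPM in DTP and 5.77 to 6.36 CPM in combo, and control was at 4.79 to 7.28 CPM (-1.33 ± 0.14). Its region is shared with GPHN in RefSeq.

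**Figure D2:**
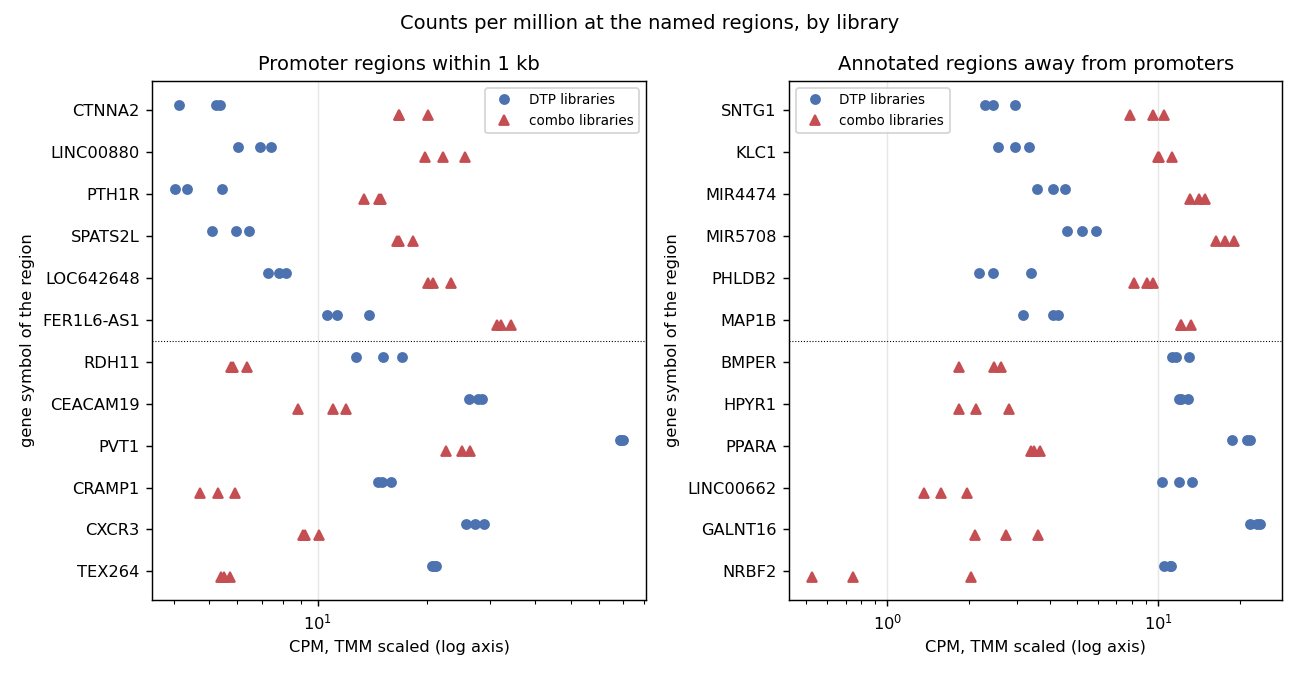
CPM (x axis, log scale) in each of the 3 DTP libraries (circles) and 3 combo libraries (triangles) at the 12 promoter regions (left) and 12 other annotated regions (right) with the largest rises (above the dotted line) and falls (below it). The groups do not overlap at any of the 24 regions, which the selection required; the largest fold change is at NRBF2, with 10.5 to 11.2 CPM in DTP and 0.525 to 2.03 CPM in combo.

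Away from promoters the 6 largest falls were larger than the 6 largest rises. Their DTP levels were above control at all 6, but the rule kept regions above the median CPM of their class, which a region low in combo could pass only through high values in DTP, so nothing is read from that count. The region assigned to NRBF2, an autophagy protein, is an exon of a noncoding transcript on chromosome 10. It had 0.809 to 1.39 CPM in control, 10.5, 11.1 and 11.2 CPM in DTP and 0.525, 0.748 and 2.03 CPM in combo (-3.25 ± 0.22, edgeR adjusted p = 7.99e-32). An intron of GALNT16, which starts mucin-type sugar chains, had 2.16 to 3.09 CPM in control, 21.8 to 23.8 CPM in DTP and 2.10 to 3.60 CPM in combo (-2.999 ± 0.15). An intron of PPARA, the fatty-acid nuclear receptor, had 2.42 to 2.63 CPM in control, 18.8 to 21.8 CPM in DTP and 3.38 to 3.67 CPM in combo (-2.56 ± 0.14). At these 3 regions combo was called neither higher nor lower than control, with adjusted p of 0.788, 0.538 and 0.0955 in edgeR, and a p that misses the threshold does not show equal values. A region in the transcript LINC00662 had 0.135 to 0.404 CPM in control, 10.3 to 13.3 CPM in DTP and 1.37 to 1.97 CPM in combo (-2.85 ± 0.20). HPYR1 on chromosome 8 was alike, with at most 0.404 CPM in control, 11.9 to 12.9 CPM in DTP and 1.84 to 2.81 CPM in combo (-2.42 ± 0.18). An intron of BMPER, a secreted binder of bone morphogenetic proteins, had 3.09 to 4.58 CPM in control, 11.3 to 13.0 CPM in DTP and 1.84 to 2.62 CPM in combo (-2.36 ± 0.18), where combo was below control as well. DTP libraries enter both comparisons, so these side-by-side values are not independent.

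The 6 rises away from promoters were chosen for DTP values low against combo. DTP libraries below control at some of them are therefore not read as a result. An intron of SNTG1, a syntrophin of the dystrophin complex, and a region near KLC1, a kinesin light chain, were called lower in DTP than in control and were not above control in combo. SNTG1 had 12.8 to 16.0 CPM in control, 2.30 to 2.95 CPM in DTP and 7.85 to 10.5 CPM in combo (1.85 ± 0.19, edgeR adjusted p = 3.28e-17). KLC1 had 9.71 to 11.4 CPM in control, 2.57 to 3.33 CPM in DTP and 10.0 to 11.3 CPM in combo (1.83 ± 0.17). At the others every combo library was above every control library. The region named for MIR4474 lies in an intron of MLLT3, a subunit of complexes that aid transcription elongation, and had 2.15 to 3.91 CPM in control, 3.58 to 4.54 CPM in DTP and 13.1 to 14.9 CPM in combo (1.79 ± 0.15). An intron of PHLDB2, which anchors microtubules at the cell edge, had 0.673 to 0.809 CPM in control, 2.18 to 3.40 CPM in DTP and 8.13 to 9.57 CPM in combo (1.73 ± 0.19). An intron of MAP1B, a microtubule-binding protein, had 4.45 to 5.65 CPM in control, 3.18 to 4.25 CPM in DTP and 12.1 to 13.2 CPM in combo (1.70 ± 0.16). The region named for MIR5708 had 7.42 to 8.04 CPM in control, 4.59 to 5.90 CPM in DTP and 16.3 to 19 CPM in combo (1.75 ± 0.13).

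At some loci the regions moved together over long stretches. Among 1942 genes with at least 6 tested non-promoter regions, the median of the gene medians was 0.08, and their 5th and 95th percentiles were -0.37 and 0.41. The 4 highest and 4 lowest genes are described here, so their direction was fixed by the choice. LIF, a cytokine of the interleukin 6 family that signals through JAK and STAT3, had 7 regions in 5.9 kb next to the gene, with a median of 1.12, and 6 of them were higher in both readings. The region with the largest rise there, at chr22:30253664-30254165, had 3.07, 2.27 and 2.57 CPM in DTP and 6.95, 7.60 and 5.52 CPM in combo (1.34 ± 0.20, edgeR adjusted p = 1.25e-08). PIM1, a survival kinase whose gene STAT factors control, had 13 of 14 regions higher over 78.3 kb, with a median of 0.77, 5 of them in both readings. LINC01891 had 5 of 7 higher and a median of 0.77. HES4, a Notch-responsive repressor, also had a median of 0.77, with 4 of 7 higher and 1 lower.

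The 4 loci that closed most carry the symbols of noncoding RNAs, and at 1 of them the regions lie within a protein-coding gene. LINC02298 on chromosome 14 had 15 of 16 regions lower over 40.0 kb with a median of -2.02, and 13 of them were lower in both readings. Over control, the median at those regions in DTP was 2.16. All 22 regions of LINC00662 on chromosome 19 were lower over 37.8 kb, 21 of them in both readings, with a median of -1.49, and the median of DTP over control there was 4.15. Regions named for MIR3918, within SYTL3, had 5 of 6 lower and a median of -1.90. Those named for MIR612, within the nuclear paraspeckle RNA gene NEAT1, had 5 of 7 lower and a median of -1.13, with DTP over control at 0.50. The medians of all 8 loci kept their sign with each of the 3 other scalings. Neighbouring regions share their local chromatin and copy number and are not independent. For each of the 8 loci, the locus medians of single combo libraries against the DTP mean kept one sign in all 3 libraries, for example -1.53, -1.42 and -1.37 at LINC00662 and 0.91, 1.02 and 1.01 at LIF. The loci were chosen for extreme medians over these same libraries. Signs kept across libraries or scalings are largely set by that choice and are no separate support. Regions near closed in control could enter the tests through their DTP reads. The counts of lower regions at the 4 falling loci, and their medians of DTP over control, are therefore not read as results.

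**Figure D3:**
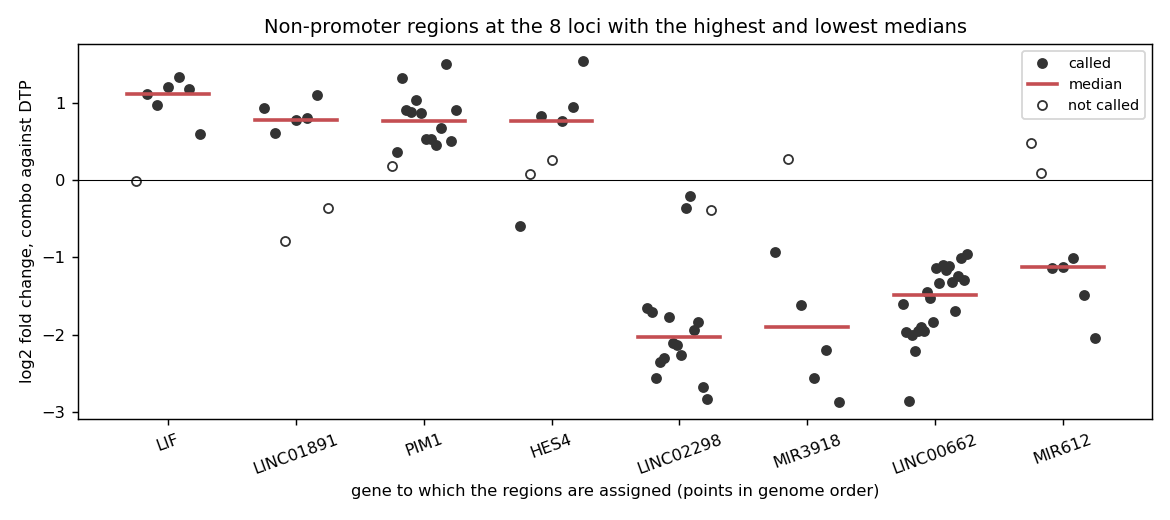
Log2 fold change of combo against DTP (y axis) for each tested non-promoter region at the 8 named loci (x axis, points in genome order within a locus); filled points passed the first reading's threshold, open points did not, and the bar is the median. All 22 LINC00662 regions lie below 0, and 6 of 7 LIF regions lie above it, at loci that were chosen for extreme medians.

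Stretches of several non-promoter regions were mostly higher under TMM scaling, and that direction turned with promoter-based scaling. BET inhibitors are most often studied at enhancer clusters, and whether these stretches are enhancers was not tested. Annotated non-promoter regions close to each other were joined into 4006 domains of at least 3 regions, and 2117 of them (52.8%) changed, 1639 higher and 478 lower. With promoter-based scaling 824 were higher and 1181 lower, and by library size alone 1174 and 872. Of the 1000 domains with the most counts in control, which are outside this comparison, 566 were higher and 81 lower in the first reading, and 64 and 18 with summed libraries. Their median was 0.18, against 0.10 in the other 3006 domains. With loess offsets the medians of their regions' changes were 0.02 and -0.01. The largest rise among the 1000 was in GSE1, a partner of histone deacetylase complexes, where a 14.7 kb domain had 86.6, 85.3 and 86.4 CPM in DTP and 165, 156 and 161 CPM in combo (0.90 ± 0.05, edgeR adjusted p = 5.79e-53), with 105 to 108 CPM in control. Another of the 3 largest rises was in a domain named for the pseudogene FAM86B3P, whose reads can belong to its near copies, with 33.9 to 39.8 CPM in DTP and 56.7 to 62.1 CPM in combo (0.73 ± 0.07). Of the 3 largest falls, 2 lay in the zinc finger cluster of chromosome 19. The domain at the ribosomal protein pseudogene RPSAP58 had 44.9, 46.8 and 45.3 CPM in DTP and 14.0, 13.6 and 14.2 CPM in combo (-1.71 ± 0.09), and the domain at ZNF730 had 30.8 to 37.1 CPM and 12.7 to 17.6 CPM (-1.17 ± 0.10). MREG, which acts in melanosome transport, had already gone from 74.3 to 78.4 CPM in control to 5.44 to 7.81 CPM in DTP, and was at 2.24 to 3.41 CPM in combo (-1.20 ± 0.20).

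At promoters the genes of the drug's own pathway moved little. Away from promoters, the share of their regions that were lower was above that of all such regions. The list of 20 BET, P-TEFb and elongation genes had 44 promoter regions, of which 9 were higher (20.5%) and 3 lower, and 5 and 3 with loess offsets, against 28.2% and 6.46% of all promoter regions. No region of the list's promoters passed with summed libraries. The list's 18 other annotated regions had 1 higher and 4 lower (22.2%, against 12.9% lower of all such regions). They had 1 and 6 with loess offsets and 1 and 8 with promoter-based scaling, and 1 lower region passed with summed libraries. HEXIM1, the P-TEFb inhibitor whose expression is a common marker of BET inhibition, had 20.3, 21.2 and 22.1 CPM in DTP and 29.0, 24.8 and 26.5 CPM in combo at its start (0.33 ± 0.09, edgeR adjusted p = 3.23e-03). That rise was 0.12 with loess offsets and did not pass there, and the other 3 HEXIM1 promoter regions did not pass in any reading.

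At MYC the promoter stayed open, and the neighbouring PVT1 gene moved in both directions. The 4 promoter regions of MYC, the growth transcription factor, were higher in combo in the first reading, with log2 fold changes of 0.41 to 0.52. With summed libraries 3 of them did not pass (edgeR adjusted p = 0.0703 to 0.215), and with loess offsets 2 did not. The region at chr8:127735029-127735530 had 93.4, 83.2 and 88.0 CPM in DTP and 124, 134 and 120 CPM in combo (0.52 ± 0.05, edgeR adjusted p = 5.96e-16, and 0.035 with summed libraries), after 30.9 to 35.5 CPM in control. With loess offsets its change was 0.18. A second PVT1 promoter region, at chr8:127891713-127892214, had 28.2, 28.6 and 37.4 CPM in DTP and 15.6, 13.7 and 12.2 CPM in combo (-1.20 ± 0.10, edgeR adjusted p = 7.92e-24). Another, at chr8:127860438-127860939, rose from 5.10 to 8.45 CPM in DTP to 9.12 to 13.2 CPM in combo (0.73 ± 0.15). Over the MYC network list as a whole, 19 of 92 promoter regions were higher (20.65%) and 6 lower (6.52%), against 28.2% and 6.46% of all promoter regions. Loess offsets gave 5 higher and 12 lower, where all promoter regions had 11.2% and 10.1%.

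Among the genes of the EGFR pathway, single regions annotated as receptor promoters diverged. ERBB2, the partner receptor HER2, had 14.7, 15.0 and 14.9 CPM in DTP and 24.7, 26.2 and 24.7 CPM in combo at its promoter (0.76 ± 0.10, edgeR adjusted p = 3.79e-11). ERBB3, the partner that lacks strong kinase activity, was read at chr12:56086006-56086507, a region annotated as a promoter of the gene. It had 5.25, 5.56 and 5.49 CPM in DTP and 1.84, 2.12 and 3.26 CPM in combo (-1.15 ± 0.21, edgeR adjusted p = 6.67e-06). Whether this region is the main start of ERBB3 was not checked. The main start of EGFR had 15.2 to 17 CPM in DTP and 16.5 to 20.1 CPM in combo and did not pass (0.24 ± 0.10, edgeR adjusted p = 0.0793). A second region annotated as an EGFR promoter, at chr7:55109321-55109822, had 10.6, 11.3 and 10.9 CPM in DTP and 14.8, 14.8 and 14.3 CPM in combo (0.42 ± 0.12), and was not called with summed libraries. FGFR2, a receptor that can bypass EGFR, had 9.73, 10.3 and 9.52 CPM in DTP and 4.85, 5.86 and 5.52 CPM in combo (-0.86 ± 0.15, edgeR adjusted p = 2.52e-06). DUSP6, the phosphatase that reports ERK activity, had 27.9 to 34.3 CPM in control, 9.21, 12.6 and 9.74 CPM in DTP and 6.95, 5.36 and 8.11 CPM in combo at its start (-0.62 ± 0.15, edgeR adjusted p = 4.34e-04, and 0.0851 with summed libraries). CCND1, which encodes cyclin D1, had 22.2 to 23.2 CPM in DTP and 17.1 to 18.9 CPM in combo at one start (-0.32 ± 0.10), which did not pass with summed libraries. The ERK target and feedback list had 12 promoter regions higher (17.1%) and 8 lower (11.4%) of 70, against 28.2% and 6.46% of all promoter regions. Loess offsets gave 5 and 10 there, where all promoter regions had 11.2% and 10.1%.

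YAP and TEAD genes, which carry the Hippo pathway's growth output and have been tied to persister survival, leaned to the open side in every reading of their promoters. Of 78 promoter regions on that list, 29 were higher (37.2%) and 1 lower, 16 and 2 with loess offsets, 16 and 6 with promoter-based scaling, and 8 and 0 with summed libraries. All promoter regions had 28.2% higher and 6.46% lower, and 2.06% and 1.265% with summed libraries. Their shares were 11.2% and 10.1% with loess offsets, and 10.6% and 13% with promoter-based scaling. Of 168 other annotated regions, 48 were higher (28.6%) and 7 lower, 35 and 18 with loess offsets, 33 and 28 with promoter-based scaling, and 16 and 2 with summed libraries. All 41034 regions of that kind had 18.7% higher and 12.9% lower. They had 5377 and 6349 with loess offsets, 4290 and 8866 with promoter-based scaling, and 1625 and 1412 with summed libraries. CCN2, also known as CTGF and a classic YAP target, had 4.79 to 6.19 CPM in control, 11.6, 9.98 and 9.52 CPM in DTP and 19.8, 18.1 and 21.3 CPM in combo at its promoter (0.94 ± 0.11, edgeR adjusted p = 1.19e-12). It therefore opened from control to DTP and again to combo. Its RefSeq promoter window, on the minus strand of GRCh38.p14 at chr6:131951323-131951622, lies inside the measured region and is printed because it holds the TEAD motif CATTCC 3 times, each in the form GGAATG, in capitals.
CCN2: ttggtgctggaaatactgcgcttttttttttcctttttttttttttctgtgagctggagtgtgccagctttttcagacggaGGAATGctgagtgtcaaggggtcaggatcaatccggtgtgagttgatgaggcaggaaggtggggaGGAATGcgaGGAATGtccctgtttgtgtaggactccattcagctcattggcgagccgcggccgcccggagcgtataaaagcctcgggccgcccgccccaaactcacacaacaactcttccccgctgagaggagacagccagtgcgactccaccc

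WWTR1, which encodes TAZ, the paralog of YAP, had 2 promoter regions that rose. The one at chr3:149736103-149736604 had 7.17, 8.51 and 9.07 CPM in DTP and 17.2, 18.3 and 19.5 CPM in combo (1.15 ± 0.12, edgeR adjusted p = 7.88e-16), and the other had 5.33 to 5.82 CPM and 11.7 to 13.5 CPM (1.18 ± 0.14). AJUBA, a scaffold that holds back the Hippo kinases, also rose at 2 promoter regions, by 0.75 ± 0.14 and 1.41 ± 0.20. The same held for PTPN14, a phosphatase that binds YAP (11 to 14.1 CPM in DTP and 20.4 to 23.2 CPM in combo, 0.82 ± 0.11), and for VGLL4, which competes with YAP for TEAD (6.91 to 8.96 CPM and 14.2 to 15.6 CPM, 0.85 ± 0.13). Among non-promoter regions, picked after their values were seen, one downstream of CCN2 at chr6:131946375-131946876 had 2.05, 2.61 and 2.57 CPM in DTP and 8.40, 9.48 and 7.77 CPM in combo (1.81 ± 0.20, edgeR adjusted p = 4.89e-15). One in an intron of AMOTL1, which tethers YAP, went the other way with 2.94 to 4.42 CPM and 0.675 to 1.18 CPM (-1.94 ± 0.30).

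The lists of epithelial-mesenchymal transition and of AP-1 factors leaned the same way. All promoter regions had 28.2% higher and 6.46% lower, 11.2% and 10.1% with loess offsets, and 10.6% and 13% with promoter-based scaling. Of 43 promoter regions on the first list, 18 were higher (41.9%) and none lower, and 4 and 0 with summed libraries. Both loess offsets and promoter-based scaling gave 13 higher and 3 lower. TGFBI, a TGF-beta induced matrix protein, had 2.50 to 3.47 CPM in DTP and 5.77 to 6.98 CPM in combo (1.05 ± 0.19), and FN1, fibronectin, had 12 to 14.1 CPM and 18.5 to 21.4 CPM (0.66 ± 0.11). GRHL2, a keeper of the epithelial state on the same list, had 13.7 to 15.0 CPM and 21.1 to 23.2 CPM (0.65 ± 0.10). Of 41 promoter regions of AP-1 factor genes, 20 were higher (48.8%) and 1 lower, 12 and 2 with loess offsets, 10 and 3 with promoter-based scaling, and 2 and 0 with summed libraries. Those 2 were ATF3, a stress-induced partner of JUN (1.79 to 2.82 CPM in DTP, 4.85 to 5.98 CPM in combo, 1.13 ± 0.22), and BATF (3.47 to 4.99 CPM and 6.48 to 9.84 CPM, 0.96 ± 0.17).

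Interferon and antigen-presentation genes had a larger share of higher non-promoter regions than the other 19 lists under TMM scaling, though not with promoter-based scaling or by library size alone. There 20 of 39 were higher (51.3%) and 5 lower, 13 and 6 with loess offsets, 11 and 7 with promoter-based scaling, 12 and 7 by library size, and 7 and 0 with summed libraries. All 41034 regions of that kind had 18.7% higher and 12.9% lower. They had 5377 and 6349 with loess offsets and 4290 and 8866 with promoter-based scaling. Of 34 promoter regions 16 were higher (47.1%) and none lower, 11 and 1 with loess offsets, 11 and 3 with promoter-based scaling, and 3 and 0 with summed libraries. All promoter regions had 28.2% higher and 6.46% lower, 11.2% and 10.1% with loess offsets, and 10.6% and 13% with promoter-based scaling. IFIT2, which binds viral RNA, had 5.63, 4.20 and 5.15 CPM in DTP and 11.2, 9.10 and 10.9 CPM in combo at its promoter (1.06 ± 0.15, edgeR adjusted p = 4.28e-09). Its neighbour IFIT3 had 3.47 to 4.65 CPM and 7.98 to 9.45 CPM (1.06 ± 0.17), and OAS1, a sensor of double-stranded RNA, had 8.96 to 13.5 CPM and 14.7 to 20.1 CPM (0.69 ± 0.12). The non-promoter calls rest on few genes: 5 of the 7 that passed with summed libraries are assigned to IRF1, a transcription factor of the interferon response. The largest of them, at chr5:132481605-132482106, had 3.45, 3.18 and 3.69 CPM in DTP and 8.26, 8.98 and 9.23 CPM in combo (1.36 ± 0.18, edgeR adjusted p = 5.69e-11), and was chosen after its values were seen.

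Cytokine genes had these counts at and away from their promoters, and the difference between both kinds of region was not tested. Of 27 promoter regions on that list 4 were higher (14.8%) and 1 lower, while of 52 other regions 18 were higher (34.6%) and 3 lower. Shares over all regions were 28.2% higher and 6.46% lower at promoters, and 18.7% and 12.9% away from them. LIF regions made up 6 of the 9 rises that passed with summed libraries. The neutrophil chemokines CXCL2 (8.73 to 10.6 CPM in DTP, 15.0 to 16.1 CPM in combo, 0.66 ± 0.12) and CXCL3 (3.74 to 5.60 CPM and 7.99 to 8.92 CPM, 0.84 ± 0.17) were the promoters that passed in both readings. Downstream of NFKBIA, the NF-kappaB inhibitor, a region picked after its values were seen had 12.2, 13.0 and 12.5 CPM in DTP and 6.43, 4.11 and 5.97 CPM in combo (-1.19 ± 0.14).

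Of 33 promoter regions of BCL2 family genes, which set the threshold for apoptosis, 13 were higher (39.4%) and none lower, 10 and 0 with loess offsets, 9 and 4 with promoter-based scaling, and 3 and 0 with summed libraries. All promoter regions had 28.2% higher and 6.46% lower, 11.2% and 10.1% with loess offsets, and 10.6% and 13% with promoter-based scaling. The antiapoptotic BCL2L1, which encodes BCL-XL, had 15.0, 13.9 and 16.6 CPM in DTP and 24.4, 24.6 and 25.8 CPM in combo at one start (0.72 ± 0.10, edgeR adjusted p = 3.65e-10), and 4.86 to 6.72 CPM and 11.6 to 13.8 CPM at another (1.12 ± 0.14). MCL1, also antiapoptotic, had 6.91 to 7.60 CPM in DTP and 11.8 to 12.8 CPM in combo (0.78 ± 0.14).

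The promoter counts of the remaining lists ran from below to above the share over all promoter regions. That share was 28.2% higher and 6.46% lower, 11.2% and 10.1% with loess offsets, and 10.6% and 13% with promoter-based scaling. Summed libraries left no promoter call on the lists of cell cycle genes, CDK inhibitors and D cyclins, and cholesterol synthesis. Higher and lower calls were 13 and 3 of 46 for cell cycle and E2F genes, 4 and 1 of 28 for CDK inhibitors and D cyclins, 17 and 2 of 50 for cholesterol synthesis, and 14 and 0 of 38 for NRF2 and glutathione genes. They were 19 and 4 of 62 for TGF-beta and BMP genes, 15 and 3 of 42 for KLF and SOX factors, 6 and 1 of 26 for alveolar lineage genes, 10 and 3 of 34 for EGFR family genes and ligands, and 9 and 4 of 39 for bypass receptors. With loess offsets the cell cycle list turned to 2 higher and 6 lower, and the cholesterol list had 3 higher and 1 lower. With promoter-based scaling lower calls outnumbered higher ones on the lists of cell cycle genes (3 higher, 8 lower), CDK inhibitors and D cyclins (1 and 2), alveolar genes (4 and 5), EGFR family genes (5 and 6), ERK targets (4 and 13), the MYC network (7 and 12), BET genes (2 and 3), cytokines (4 and 6) and histones (5 and 10). SLC3A2, a chain of the cystine transporter, had 7.93 to 12.7 CPM in DTP and 15.8 to 17.6 CPM in combo (0.73 ± 0.12). SMAD2, a TGF-beta signal carrier, had 5.26 to 7.42 CPM and 10.9 to 11 CPM (0.75 ± 0.14). KLF5, an epithelial transcription factor, had 2.57 to 3.86 CPM and 5.49 to 6.69 CPM (0.97 ± 0.20). Histone genes of the chromosome 6 clusters were the promoter list with the fewest rises, 7 of 82 (8.54%), with 5 lower, and 6 and 9 with loess offsets. Only H1-1, a linker histone, passed in both readings (3.36 to 7.29 CPM in DTP, 8.85 to 10.9 CPM in combo, 0.93 ± 0.16).

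**Figure D4:**
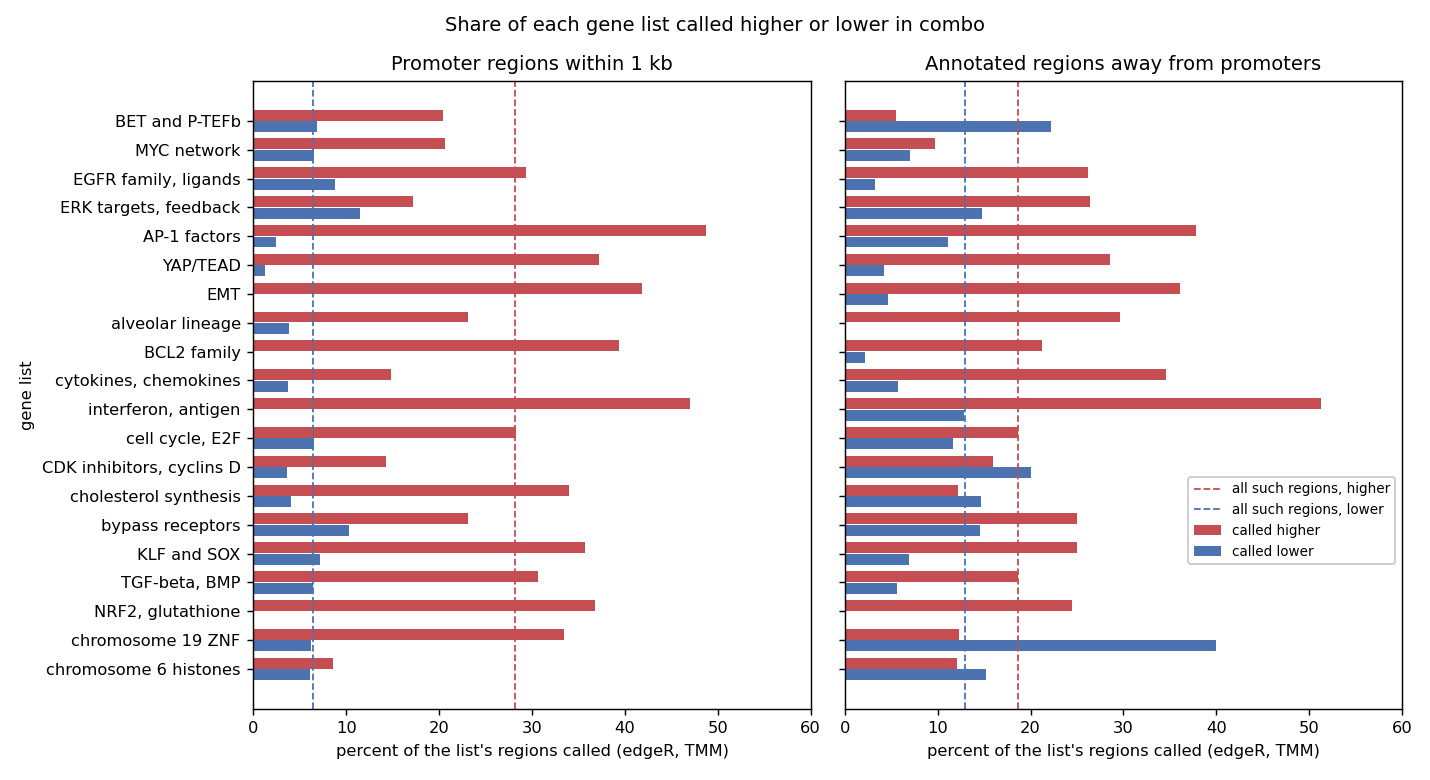
Percent of each list's regions (x axis) that were called higher (red) or lower (blue) in combo in the first reading, for promoter regions (left) and annotated regions away from promoters (right); dashed lines give the same percent over all regions of that kind. The chromosome 19 zinc finger list stands out on the right with 39.9% lower against 12.9%, and AP-1 and interferon promoters reach 48.8% and 47.1% higher against 28.2%.

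Zinc finger genes of chromosome 19 had the largest share of lower distal regions among the 20 lists with each of the 4 scalings. These genes encode KRAB repressors of transposable elements and lie in clusters with their own repressive chromatin. Of 253 regions away from promoters, 101 were lower (39.9%) and 31 higher, 107 and 18 with loess offsets, 126 and 20 with promoter-based scaling, and 59 and 8 with summed libraries, with a median of -0.43. All regions of that kind had 12.9% lower and 18.7% higher. The shares lower were like by place: 42 of 96 intergenic or downstream regions, 43 of 115 in introns and 16 of 42 in exons. At zinc finger genes on other chromosomes 46 of 405 such regions were lower, and at other genes of chromosome 19 283 of 1582. The promoters of the same genes did not share this, with 157 higher and 29 lower of 470 (33.4% and 6.17%), although with loess offsets 34 were higher and 65 lower, and with promoter-based scaling 55 and 56. All promoter regions had 28.2% higher and 6.46% lower, 11.2% and 10.1% with loess offsets, and 10.6% and 13% with promoter-based scaling. In DTP against control, the medians of the list's intronic and intergenic regions were already -0.60 and -0.42. On chromosome 19 as a whole, the bin from 20 to 30 Mb, which holds one of the clusters, had a median of -0.32 over 686 regions, and the other 5 bins had medians from -0.13 to 0.03. Reads of near-identical zinc finger copies can be split or lost by the authors' counting, so single members are uncertain.

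The largest falls among zinc finger promoters left few reads in combo at ZNF431 and ZNF763. ZNF431 had 11.3, 12.6 and 10.2 CPM in DTP and 0.262, 0.374 and 0.450 CPM in combo at a region upstream of its start (-4.89 ± 0.28, edgeR adjusted p = 6.48e-41), the largest fall among list promoters. ZNF763 had 8.45, 8.85 and 10.1 CPM in DTP and 1.57, 0.499 and 0.338 CPM in combo at its start (-3.54 ± 0.25), and 2.72 to 3.33 CPM and 0.00 to 0.499 CPM at a second region. ZNF20 had 3.58 to 4.93 CPM and 1.12 to 1.58 CPM (-1.76 ± 0.26). ZNF431 was above control in DTP by 5.503 on the log2 scale and ZNF763 below it by 1.28. In all, 12 promoter regions of the list were lower and 3 higher in both readings. The 3 that rose were ZNF561-AS1 (1.12 ± 0.18), ZNF555 (0.58 ± 0.07) and ZNF223 (0.53 ± 0.07).

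The letters under the promoter regions were read from the RefSeq windows, which run from 250 bases before to 50 after a start. Of 34961 windows, 13247 were overlapped by a tested promoter region over at least 150 bases. The CCAAT box, which the factor NFY binds, was counted on both strands (CCAAT or ATTGG). It was held by 45.7% of the 5649 windows called higher, 32.8% of the 317 called lower and 28.8% of the 7281 not called, against 36.1% of the 13247 windows with a tested region and 34.6% of all windows. With loess offsets the shares were 41.2% of 1446 higher and 32.1% of 800 lower windows, and in all 3 readings 34.4% of 195 higher and 42.9% of 63 lower windows. The ETS motif CCGGAA was held by 35.7% of the windows called higher, 12% of those called lower and 27.9% of those not called. With loess offsets it was held by 29.2% of the higher and 20% of the lower windows. In all 3 readings it was held by 24.6% of the higher and 4.76% of the 63 lower windows. The TEAD motif CATTCC was held by 10.4%, 10.1% and 10.6%, and in all 3 readings by 19.5% of the 195 higher and 11.1% of the 63 lower windows. Over the 13247 windows with a tested region, the ETS motif was held by 30.8% and the TEAD motif by 10.5%. In the same order of higher, lower and not called, the AP-1 motif TGANTCA was held by 4.92%, 7.89% and 5.89%, the CRE motif TGACGTCA by 4.05%, 1.58% and 3.05%, and the E-box CACGTG by 9.98%, 3.79% and 10.1%. GGGCGG, the SP and KLF box, was held by 74.7%, 66.6% and 71.9%, TATAAA by 4.28%, 5.68% and 4.67%, and the NRF1 motif by 15.3%, 7.57% and 17.6%. Median GC content was 65.7% in windows called higher, 66.0% in those called lower and 67.0% in those not called. These shares are descriptions, and a match is not a bound site.

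Of the promoters described, 4 windows are printed with their CCAAT boxes, in either orientation, in capitals. They are SOX4, a factor of progenitor cells, on the plus strand at chr6:21593501-21593800, with 4 boxes, and ZNF555, plus strand, chr19:2841225-2841524, with 5. HEXIM1, plus strand, chr17:45148225-45148524, has 2 and shows the start whose change depended on the scaling. FGFR2, minus strand, chr10:121598395-121598694, has 1 and is the one of the 4 that fell. At SOX4 the measured region had 13.4, 15.4 and 15.4 CPM in DTP and 23.2, 20.9 and 23.8 CPM in combo (0.61 ± 0.10, edgeR adjusted p = 2.14e-07), and at ZNF555 it had 33.4, 34.1 and 31.5 CPM and 49.3, 49.9 and 49.1 CPM. All windows are from GRCh38.p14.
SOX4: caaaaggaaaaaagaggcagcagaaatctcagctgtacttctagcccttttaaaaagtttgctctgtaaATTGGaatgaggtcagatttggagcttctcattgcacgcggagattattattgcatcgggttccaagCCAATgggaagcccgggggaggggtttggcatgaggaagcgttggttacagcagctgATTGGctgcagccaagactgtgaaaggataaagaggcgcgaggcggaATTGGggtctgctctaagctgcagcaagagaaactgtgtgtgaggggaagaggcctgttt
ZNF555: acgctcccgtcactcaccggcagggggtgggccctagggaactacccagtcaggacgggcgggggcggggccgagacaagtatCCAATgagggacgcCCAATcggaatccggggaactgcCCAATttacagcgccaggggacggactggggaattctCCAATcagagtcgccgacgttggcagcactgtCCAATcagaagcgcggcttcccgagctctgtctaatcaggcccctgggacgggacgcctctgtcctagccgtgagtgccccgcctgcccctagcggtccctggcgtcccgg
HEXIM1: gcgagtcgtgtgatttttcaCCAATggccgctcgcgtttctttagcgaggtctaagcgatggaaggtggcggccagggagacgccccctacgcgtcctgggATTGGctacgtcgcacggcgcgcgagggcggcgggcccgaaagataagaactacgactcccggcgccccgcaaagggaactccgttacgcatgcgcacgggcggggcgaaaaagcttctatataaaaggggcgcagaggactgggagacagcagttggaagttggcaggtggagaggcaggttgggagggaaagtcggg
FGFR2: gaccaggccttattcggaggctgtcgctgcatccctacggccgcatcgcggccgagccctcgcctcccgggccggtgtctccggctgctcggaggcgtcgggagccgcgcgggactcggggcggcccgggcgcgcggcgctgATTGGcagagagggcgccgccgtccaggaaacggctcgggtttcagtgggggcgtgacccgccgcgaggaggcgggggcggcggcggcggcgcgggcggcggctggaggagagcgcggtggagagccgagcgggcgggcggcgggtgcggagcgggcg

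The same comparison was made in PC9 and HCC2935, 2 other EGFR-mutant lung lines, and shares no samples with H1975. It also exists in HCC827, which was not used here. Regions that overlapped by at least 50% of each were matched, 192996 to PC9 and 156131 to HCC2935. Among regions that fell in both H1975 readings, the share that fell in these lines was larger than among all matched regions. Of 1728 such regions tested in PC9, 673 were lower there (39.0%) and 39 higher, against 12.2% and 10.1% of all 90809 regions tested in both lines. In HCC2935, 639 of 2081 were lower (30.7%) and 4 higher, against 5.5% and 2.41% of 95847. Of the regions that rose in both H1975 readings, 634 of 2105 were higher in PC9 (30.1%) and 285 of 2144 in HCC2935 (13.3%). The distal regions of chromosome 19 zinc finger genes that could be matched, 72 in PC9 and 67 in HCC2935, had 23 (31.9%) and 13 (19.4%) lower there, and 4 and 0 higher. Of all annotated non-promoter regions tested in both lines, 16.1% were lower in PC9 and 7.23% in HCC2935, and 8.82% and 1.74% higher. The matched zinc finger regions had medians of 0.01 and 0.08 in H1975, against -0.43 over all 253.

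**Figure D5:**
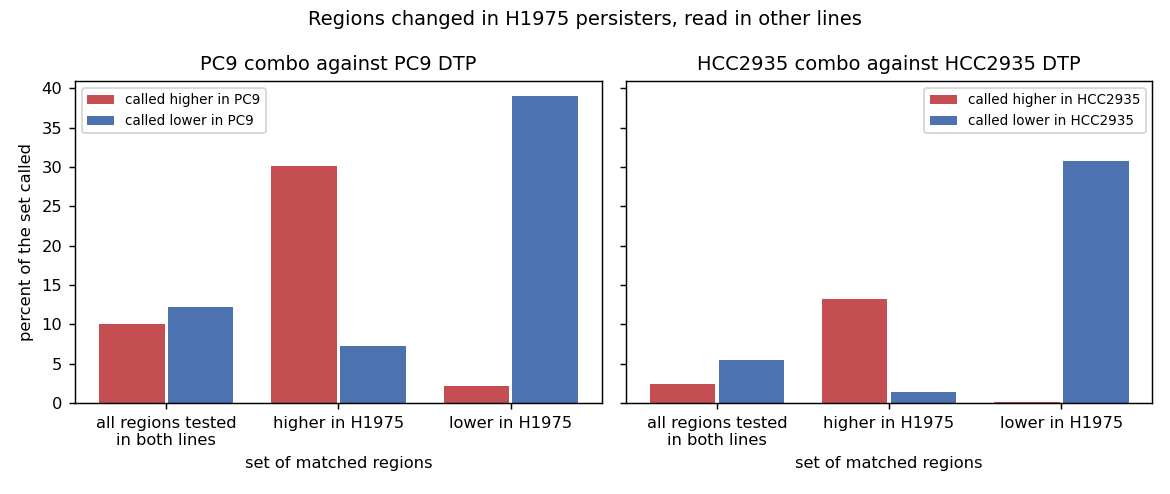
Percent of matched regions (y axis) called higher (red) or lower (blue) in combo against DTP in PC9 (left) and HCC2935 (right), for all regions tested in both lines and for those called higher or lower in both H1975 readings (x axis). Regions lower in H1975 were lower in 39.0% of cases in PC9 and 30.7% in HCC2935, against 12.2% and 5.5% of all.

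Tested directly, the change from DTP to combo differed between H1975 and PC9 at 10246 of 135372 matched regions (7.57%), 6365 of them higher in H1975 and 3881 lower. Between H1975 and HCC2935 it differed at 4343 of 140488 (3.09%), 3008 higher and 1335 lower. The BMPER intron fell in all 3 lines, with -2.96 ± 0.29 in PC9 and -2.12 ± 0.26 in HCC2935 beside -2.36 in H1975, and the interaction did not pass in either (edgeR adjusted p = 0.512 and 0.805). CEACAM19 did likewise, with -1.42 ± 0.20 and -1.37 ± 0.17. The ERBB3 region at chr12:56086006-56086507 fell by 1.48 ± 0.34 in PC9 and by 1.13 ± 0.36 in HCC2935, and SOX4 rose by 0.89 ± 0.13 and 0.53 ± 0.12. LIF at chr22:30252569-30253070 rose by 0.62 ± 0.06 in PC9 and had 0.02 ± 0.31 in HCC2935. YAP and TEAD promoters varied: CCN2 rose by 0.38 ± 0.14 in PC9 (edgeR adjusted p = 0.0335) and had 0.27 ± 0.15 in HCC2935 (0.29), while WWTR1 at chr3:149736103-149736604 had -0.37 ± 0.20 in PC9, where the difference from H1975 passed. The EGFR region at chr7:55109321-55109822, higher in H1975, fell by 2.13 ± 0.21 in PC9 and by 0.51 ± 0.16 in HCC2935, and both differences passed (edgeR adjusted p = 4.12e-18 and 1.10e-03).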

How the data were processed

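The deposited tables hold raw read counts per region, made by the authors from ATAC-seq reads. Per the labels, the submitters' processing notes name BWA 0.7.17, SAMtools 1.9, deepTools 3.4, MACS2 2.2.6, featureCounts 2.0.0 and ChIPseeker 1.29.1 and the hg38 build; no source used here gives the handling of duplicates or of cut-site shifts. The peak files deposited by the authors for each library give a −log10 q-value per peak, and were read for the number of peaks and for peaks at the named regions, of which the text prints the number alone. Groups came from the sample names. The members and gene lists were chosen with earlier results of these data known.

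Regions were kept by filterByExpr, scaled by TMM and fitted in edgeR 4.0.16 (R 4.3.3) with 4 H1975 groups sharing one spread, quasi-likelihood F tests and Benjamini-Hochberg adjustment over all 191202 regions. In the summed reading, the 3 libraries of a group were added and tested by edgeR's likelihood ratio test with the trended dispersion of HCC2935. Loess offsets (span 0.3, limma 3.58.1) were added after the data were seen. CPM values use TMM-scaled totals. Regions were named by size among those passing both readings, with no overlap between groups and above the median CPM of their class, 1 per gene symbol: the 6 largest rises and falls for each class, the 4 highest and lowest loci, the 3 largest domain changes each way, and the 2 largest line differences each way. Members of gene lists were named where both readings called them. DESeq2 1.42.0 and limma voom were alternatives. The steps were tested on simulated counts. Replicate numbers did not pair the samples, with correlations of -0.01, -0.06 and -0.02 between the deviations of same-numbered DTP and combo libraries. RefSeq windows and gene spans (GRCh38.p14) gave sequences and overlaps. Some genes and their regions are not reported here.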

Additional observations from a re-analysis of the deposited data

Results flagged for a closer look

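The results given here are those where the change from DTP to combo differed between H1975 and another line by a test of the difference itself (edgeR interaction, Benjamini-Hochberg adjusted p under 0.05). It differed from PC9 at 10246 matched regions and from HCC2935 at 4343. Values are the log2 change in H1975 minus that in the other line, so a positive value means a more positive change in H1975, not a larger one, and the causes were not tested.

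Against PC9, the named promoter and intron regions with a more positive change in H1975 were SNTG1 (3.39), CTNNA2 (2.81), EGFR at its second promoter region (2.47, where PC9 fell), FER1L6-AS1 (2.41), PHLDB2 (2.33), MIR5708 (1.46), WWTR1 (1.43), LOC642648 (1.13), CXCL2 (1.12), CXCL3 (1.02), IFIT2 (0.96), LINC00880 (0.88), FN1 (0.64), ERBB2 (0.52) and MYC (0.39). At CCND1 the regions of the start and of the one 36 bases before a start were lower in H1975 (-1.02 and -0.93) and the region 526 bases after a start was higher (1.25). FGFR2 (-1.57) was lower in H1975.

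Against HCC2935, the change was more positive in H1975 at MIR5708 (1.94), MAP1B (1.80), KLC1 (1.79), LINC00880 (1.25), MIR4474 (1.15), LOC642648 (1.13), CTNNA2 (1.09), BATF (0.97), IFIT2 (0.96), EGFR at its second promoter region (0.92, where HCC2935 fell), OAS1 (0.90), BCL2L1 at both promoter regions (0.83 and 0.52), SPATS2L (0.77), CCN2 (0.65) and ERBB2 (0.54). It was more negative in H1975 at PPARA (-2.13), FGFR2 (-1.10) and a PVT1 promoter region (-0.74).

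The regions with the largest such differences were near closed in one line or one group, so they are given by their values. An intron of PDGFRL on chromosome 8 had 8.80 to 11.4 CPM in H1975 DTP and 15.8 to 18.4 CPM in H1975 combo, and at most 1.01 CPM in PC9 DTP and 0 in PC9 combo (edgeR adjusted p = 0.00234). CDCP1, a surface substrate of SRC kinases, had 4.40 to 6.54 CPM and 8.96 to 9.84 CPM in H1975, and at most 0.779 CPM and 0 in PC9 (edgeR adjusted p = 0.00522). A region named for PDCD6-DT, within SDHA, had 14.1 to 18.8 CPM over both H1975 groups, and 0 in PC9 DTP and 0.779 to 1.39 CPM in PC9 combo (edgeR adjusted p = 0.00517). A region within ARHGAP31 had 2.18 to 2.69 CPM in H1975 DTP and at most 0.134 CPM in combo, and 6.82 to 9.60 CPM and 3.88 to 5.01 CPM in PC9 (edgeR adjusted p = 2.35e-05).

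Against HCC2935, a region on chromosome 3 had 1.45 to 1.99 CPM in H1975 DTP and 2.77 to 3.55 CPM in combo, and 7.49 to 11.2 CPM and 1.27 to 1.53 CPM in HCC2935 (edgeR adjusted p = 3.32e-09). A region within DST had at most 0.147 CPM and 0.484 to 0.584 CPM in H1975, and 12.2 to 13.4 CPM and 8.05 to 9.10 CPM in HCC2935 (edgeR adjusted p = 0.0295). A region on chromosome 15 had 0.332 to 0.582 CPM in H1975 DTP and 0 in combo, and 5.87 to 9.10 CPM over both HCC2935 groups (edgeR adjusted p = 0.031). A region on chromosome X had 0.436 to 1.50 CPM and at most 0.169 CPM in H1975, and 19 to 24.1 CPM over both HCC2935 groups (edgeR adjusted p = 0.0107).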

How the results depend on the processing

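Totals of regions, domains and line differences that are not named here stayed within a factor of 3 over 2 of their value under each alternative run, while the promoter and domain splits by direction moved more, as the report gives for the scalings. The total of 40278 regions was 39564 with DESeq2's size factors, 39984 with limma voom and 38905 with the replicate block, in which replicate numbers entered as a term. That block moved no count of regions or domains past that factor, and since the replicate numbers did not pair the samples it is given only here. With TMM factors from promoter regions 10968 regions were higher and 29646 lower, and with loess offsets 6026 promoter regions passed against 9793. The summed libraries left 7564 regions, 3348 higher and 4216 lower, 940 of them at promoters, and 1350 in all when the HCC2935 dispersion was multiplied by 2. DESeq2 as a test called 17073 (10511 higher, 6562 lower, 5017 at promoters). A mean of at least 50 counts, which left 41416 regions to test, gave 13980 (6750 higher, 7230 lower, 5188 at promoters), the annotated regions alone gave 25015 with 12573 higher, and without a filter 11397 were lower. A required log2 fold change of at least 1 left 13044 regions, 3905 higher and 9139 lower, 504 of them at promoters. The causes of these shifts were not tested, beyond the fewer regions or samples that the settings themselves impose.

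When each of the 6 libraries was left out in turn, 28434 (without combo 3) to 34264 regions passed, and 6504 (without combo 3) to 8509 promoter regions. Regions whose effect differed from HCC2935 numbered 2708 to 3458 against 4343, with 2708 without combo 1, 2840 without combo 3 and 2859 without DTP 1. Of 83 regions followed one by one, those named by the rules and promoter regions that were called or the most open of their gene, 45 kept their side of the threshold under every alternative and none of the 83 changed direction. Regions named by the rules had to pass both readings. Their calls in the summed reading were thus fixed, and their kept signs are no separate support. Of 65 losses of a call, 37 came from the required log2 fold change of at least 1 and 9 from the summed libraries. The calls at HEXIM1 and at the second EGFR promoter region were each lost with promoter-based scaling, loess offsets, summed libraries and the filter at 50 counts. At a depth of 8321788 to 10062505 reads over 496892 regions, most regions had too few reads to be tested.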
